A study of Mus musculus with 2 samples.

Results

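The genes of dietary fat absorption were described in 2 single-cell RNA-seq libraries of mouse enteroids, 1 from control mice and 1 from mice in which *Taf4*, a subunit gene of the general transcription factor TFIID, can be deleted in the intestinal epithelium. The 10 genes were taken by name from the 16665 genes listed in either library. They were *Fabp1*, *Fabp2*, *Rbp2*, *Mogat2*, *Dgat1*, *Apob*, *Mttp*, *Apoa1*, *Apoa4* and *Apoc3*, and all 10 were detected in both libraries. The rule names genes and uses no measured value, but the list was drawn up with earlier results of these data known. Enteroids were grown from crypts of the ileum of 4-month-old mice on a C57Bl6/129sv background. The control genotype was Taf4lox/lox, without Cre, and the other was Taf4lox/lox::VilCreERT2, abbreviated Taf4IEC, in which a villin promoter drives a tamoxifen-inducible Cre in epithelial cells. The library labelled Taf4IEC received 4-hydroxytamoxifen (4-OHT, 1 µM) for 3 days, from day 5 to day 8 of culture. The deposited label gives ethanol for the control library, whereas the methods of the study describe 4-OHT for both genotypes, so the genotype and the treatment cannot be told apart if the label holds. Each group was 1 library, which leaves no replicate check, and every difference below compares these 2 libraries.

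The control library held 2563 cells and 39947009 unique molecular identifiers (UMIs, each of which marks 1 captured transcript end), and the library labelled Taf4IEC held 1811 cells and 24990128 UMIs. The median cell had 16749 UMIs in the control and 2254 in the library labelled Taf4IEC, where 49.1% of the cells had under 2000 UMIs against 17.3% in the control. *Taf4* itself had 278 UMIs in the control, or 0.0696 per 10000 UMIs, and 236 or 0.0944 per 10000 in the library labelled Taf4IEC. Whether the transcript end that was counted lies in the deleted part of the gene was not checked, so these counts do not test the deletion, and the library is called by its label throughout. The 2 libraries had 2 cell barcodes in common. All 5 epithelial markers were detected in both libraries, whereas markers of immune cells summed to 0.00801 and 0.0256 UMIs per 10000 and those of stroma and endothelium to 0.00401 and 0.0044. The ileal genes *Fabp6* and *Slc10a2* were detected in both.

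Enterocytes take up fatty acids, monoacylglycerol and retinol from the lumen. Fatty acid binding proteins and the retinol-binding protein encoded by *Rbp2* carry these ligands in the cytosol, the acyltransferases encoded by *Mogat2* and *Dgat1* rebuild triglycerides, and the triglyceride is loaded by the microsomal transfer protein encoded by *Mttp* onto apolipoprotein B to form chylomicrons. Apolipoproteins A-I, A-IV and C-III are exchangeable proteins of the particle's surface. Their genes *Apoa1*, *Apoc3* and *Apoa4* are neighbours on chromosome 9 (mm10), at 46228630 to 46230469, 46233050 to 46235636 and 46240844 to 46243458, and the gene bodies do not overlap.

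The promoters of 4 of the genes are shown because the results turn on them: *Apoa1* and *Apoa4*, the neighbours whose levels over all cells differed in opposite directions between the libraries, *Apob*, which was higher in the library labelled Taf4IEC in each cell set described, and *Fabp1*, the member with the most UMIs in both libraries. Each sequence is from RefSeq (GRCm38.p6) and runs from 250 bases before to 50 after the start site of the RefSeq table, on the strand of the gene. The windows are chr9:46228380-46228679 for *Apoa1*, chr9:46240594-46240893 for *Apoa4*, chr12:7977427-7977726 for *Apob* and chr6:71199629-71199928 for *Fabp1*, all on the plus strand. Capitals mark matches, on either strand, to the motifs searched.
Apoa1: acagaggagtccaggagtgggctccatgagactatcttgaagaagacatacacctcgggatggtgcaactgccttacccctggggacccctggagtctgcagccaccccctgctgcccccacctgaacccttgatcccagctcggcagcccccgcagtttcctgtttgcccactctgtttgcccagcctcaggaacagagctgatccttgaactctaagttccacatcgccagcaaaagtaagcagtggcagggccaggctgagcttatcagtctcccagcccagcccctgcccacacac
Apoa4: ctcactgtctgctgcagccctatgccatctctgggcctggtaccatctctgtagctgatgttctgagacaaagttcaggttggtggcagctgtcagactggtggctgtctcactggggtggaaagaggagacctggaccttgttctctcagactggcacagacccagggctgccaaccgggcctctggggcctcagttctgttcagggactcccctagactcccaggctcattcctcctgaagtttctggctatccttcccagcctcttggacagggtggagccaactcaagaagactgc
Apob: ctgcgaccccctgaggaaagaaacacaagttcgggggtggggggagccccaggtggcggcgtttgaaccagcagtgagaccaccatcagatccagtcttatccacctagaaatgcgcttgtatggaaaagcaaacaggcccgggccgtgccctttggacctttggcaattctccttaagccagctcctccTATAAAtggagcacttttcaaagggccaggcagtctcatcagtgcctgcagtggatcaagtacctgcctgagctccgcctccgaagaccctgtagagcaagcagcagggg
Fabp1: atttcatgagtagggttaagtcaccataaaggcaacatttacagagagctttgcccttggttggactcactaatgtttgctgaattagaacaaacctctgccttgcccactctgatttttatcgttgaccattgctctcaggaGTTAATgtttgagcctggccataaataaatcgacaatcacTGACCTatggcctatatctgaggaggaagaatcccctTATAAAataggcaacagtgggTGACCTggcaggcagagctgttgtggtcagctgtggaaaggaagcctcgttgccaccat

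The motifs searched on both strands were TATAAA, the TATA box, AAGTCCA, part of the site of HNF4, AGGTCA, a half-site of nuclear receptors, GTTAAT, a half-site of HNF1, and AGATAA, the site of GATA factors. TATAAA was found in 13.6% of the 32851 promoter windows of the table and in 3 of the 7 members that the table holds, which were *Fabp1*, *Rbp2* and *Apob*. It began 30 bases before the start in *Fabp1* and 60 bases before the start that the table uses for *Apob*, which lies downstream of the first annotated base of that gene (7977629). AGGTCA was in 16.3% of all windows and in *Fabp1* and *Rbp2*, where it reads TGACCT on the strand of the gene. GTTAAT was in 7.1% of all windows and in *Fabp1*, AGATAA in 11.2% and in *Rbp2*, and AAGTCCA in 4.17% and in 0 of the 7. The AGATAA match of *Rbp2* overlaps a TATAAA match, both on the strand opposite to the gene. The windows of *Apoa1*, *Apoa4*, *Fabp2* and *Mttp* held none of the 5 motifs, and *Apoc3*, *Mogat2* and *Dgat1* had no entry. A match is a run of letters and not a site of binding.

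Which cells carried these genes was asked first. Cells were clustered in each library without the 10 genes or a further 43 genes of fat handling, and clusters were named from markers of other functions, so the levels below were not used to form the clusters. In the control, 1 cluster of 209 cells met 12 of 14 enterocyte markers and was called enterocyte-like (8.15% of cells, 7.12 to 9.28, exact binomial 95% interval). In the library labelled Taf4IEC 2 clusters were called enterocyte-like, 1 of 182 cells that met all 14 markers and a second of 129 cells that met 4, in all 17.2% of cells (15.5 to 19.0). The 209 and 182 cells are called the first enterocyte-like clusters here. Because they hold most transcripts of these genes, and because the second cluster was led by other genes (*Tmem237*, *2210407C18Rik* and *Lgals3*), the clusters are described one by one, a choice made after the values were seen. Intervals on levels and ratios are exact 95% intervals that cover counting error only.

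The 10 genes were concentrated in the enterocyte-like cells of both libraries. The control cluster held 10.97% of all UMIs of its library but 95.2% of those of *Apoc3*, 92.7% of *Fabp1*, 92.4% of *Apoa1* and 89.98% of *Rbp2*. *Dgat1*, with 51.2%, and *Apob*, with 45.4%, were the most spread. In the library labelled Taf4IEC both enterocyte-like clusters held 35.3% of all UMIs and between 69.8% (*Apob*) and 98.1% (*Fabp1*) of those of each member. The first cluster alone, with 19.0% of all UMIs, held 96.2% of *Fabp1* and 52.7% of *Apob*. Every member had its highest level of that library in the cluster of 182 cells, and 7 of the 10 had their highest level of the control in the cluster of 209. The exceptions *Fabp1*, *Fabp2* and *Rbp2* were highest in a small unnamed control cluster (20 cells, median depth 2468 UMIs), at 57.5, 30.1 and 13.3 UMIs per 10000. That cluster met 4 enterocyte markers and no marker of another class, and stayed unnamed because it was shallow without leading markers. The depth limit followed the median depth of each library and so was lower in the library labelled Taf4IEC.

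**Figure D1:**
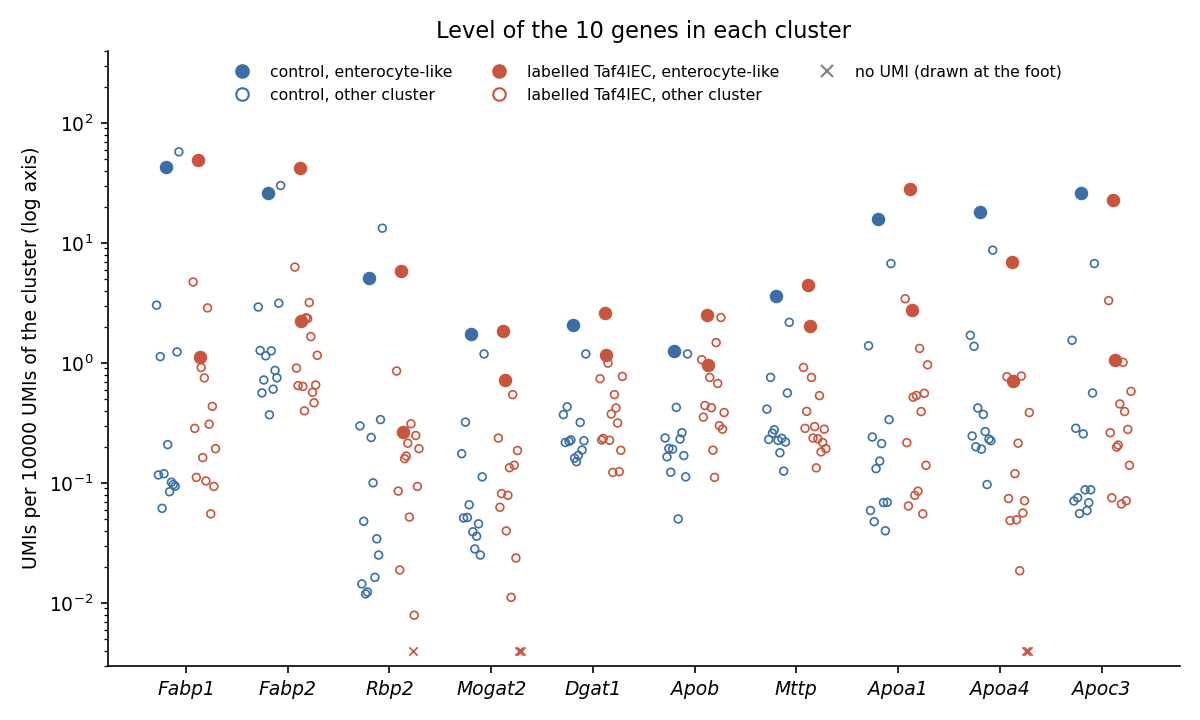
Level of each gene in each of the 13 control clusters and 15 clusters of the library labelled Taf4IEC, in UMIs per 10000 UMIs of the cluster on a log axis; filled points are enterocyte-like clusters, open points all others and crosses clusters with no UMI. The first enterocyte-like cluster of each library stands at or near the top for every gene and the second lies below it; the upper filled point of *Apoa4* is at 18.2 in the control and 6.99 in the library labelled Taf4IEC.

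Outside the enterocyte-like cells the mixture of the 10 transcripts was different. *Fabp2* gave 18.3% of the members' summed UMIs in control enterocyte-like cells, 45.1% in control stem-like cells and 49.9% in control Paneth/goblet-like cells, and *Apob* 0.885%, 8.06% and 1.98%. The part of free RNA in these levels was not tested. In the control the lowest level of *Fabp2* in any cluster was 0.37 UMIs per 10000, with a median over the 13 clusters of 1.15, whereas *Fabp1*, the liver-type binding protein, had a median of 0.119 and a highest level of 57.5. In the library labelled Taf4IEC *Apoa4* had no UMI in 2 clusters, of 29 and 15 cells, which allows levels of up to 0.0932 and 0.14 per 10000 at a floor of 3 counts.

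Over all cells, 9 of the 10 genes had a higher level in the library labelled Taf4IEC, and *Apoa4* a lower one. The summed level of the 10 was 18.5 UMIs per 10000 in the control and 35.6 in the library labelled Taf4IEC. The median of the members' log2 ratios (library labelled Taf4IEC over control) was 0.95, against 0.16 for the 10002 genes that reached 200 UMIs in the libraries together. A log2 ratio of 1 was passed upwards by 4 members (*Fabp2*, *Apob*, *Mttp* and *Apoa1*), as by 5.52% of those genes, and downwards by 0 members, as by 3.48% of the genes. The share of UMIs from enterocyte-like cells moved with these ratios, from 10.97% to 35.3%, and in summed cells a larger share of a cell type and more RNA per cell cannot be told apart. When each class of cells was given its control share of UMIs in both libraries, the members' median was -0.18, and it was 0.25 when the second cluster of 129 cells was left out of the class by a stricter marker threshold. *Apob* kept a log2 ratio of 1.01 and 1.07 in these 2 calculations and *Apoa4* one of -2.17 and -1.45, while 5 members changed sign in the first (*Fabp1*, *Fabp2*, *Rbp2*, *Mogat2* and *Apoc3*) and *Apoc3* did in the second.

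**Figure D2:**
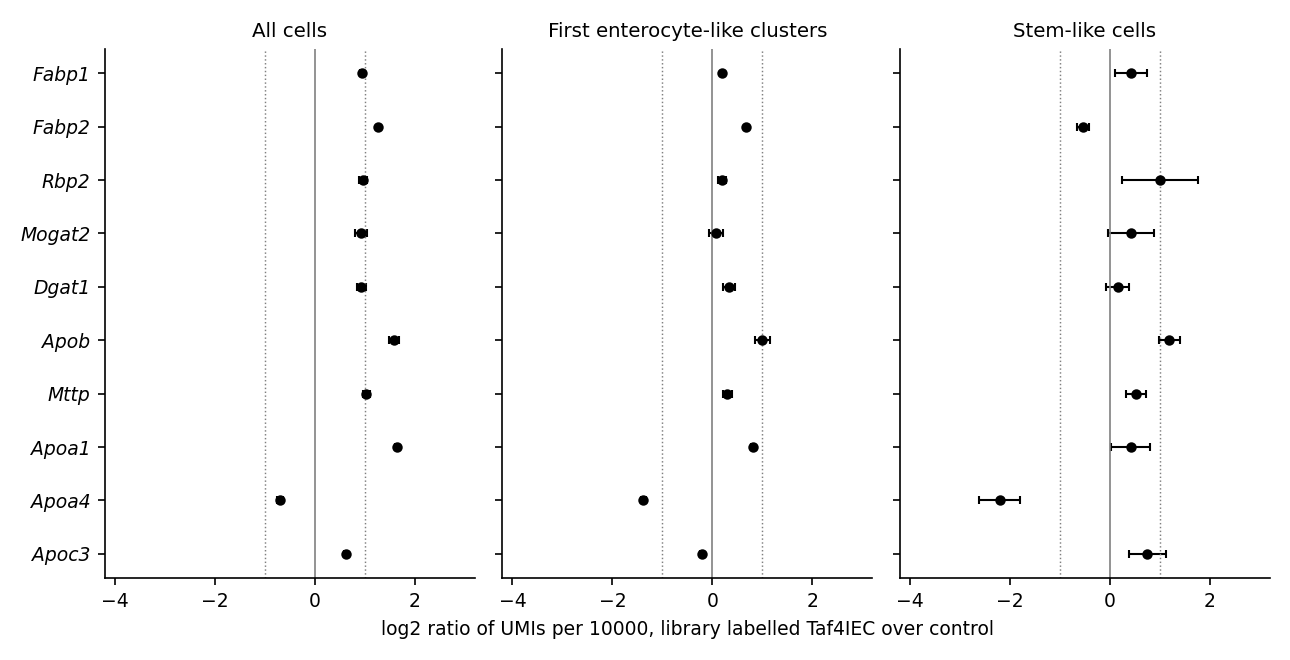
Log2 ratio of UMIs per 10000, library labelled Taf4IEC over control, for each gene in all cells, in the first enterocyte-like clusters (209 control cells, 182 cells labelled Taf4IEC) and in stem-like cells (1067 and 447 cells); points are ratios, bars exact 95% counting intervals and dotted lines ratios of -1 and 1. *Apoa4* is below 0 in all 3 panels, at -0.70, -1.38 and -2.19, and *Apob* is near or above 1 in all 3, at 1.58, 1.00 and 1.19.

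The cytosolic binding proteins were higher over all cells of the library labelled Taf4IEC, but their direction in enterocyte-like cells depended on which clusters were taken. With both enterocyte-like clusters of that library as 1 class, *Fabp1* had a log2 ratio of -0.67 (-0.70 to -0.64), *Rbp2* one of -0.64 (-0.72 to -0.56) and *Fabp2* one of -0.15 (-0.18 to -0.11), while in the first clusters alone all 3 were above 0. *Fabp1* had 5.06 UMIs per 10000 over all control cells and 9.68 in the library labelled Taf4IEC, and in the first enterocyte-like clusters 42.7 (42.1 to 43.3) and 48.9 (48.3 to 49.6), giving a log2 ratio of 0.20 (0.17 to 0.22). Its sign within these clusters depended on the weight of the cells, since the mean over cells gave -0.084. *Fabp2*, the intestinal type, had 3.77 and 9.07 over all cells and 26.2 (25.7 to 26.6) and 41.97 (41.4 to 42.6) in the first clusters, where the log2 ratio was 0.68. In stem-like cells *Fabp2* was lower in the library labelled Taf4IEC, at 0.688 against 0.997 (log2 -0.54, -0.66 to -0.41), and in Paneth/goblet-like cells higher, at 2.35 against 1.26 (log2 0.90, 0.72 to 1.08). In single stem-like clusters its level ran from 0.605 to 1.27 in the control and from 0.569 to 1.16 in the library labelled Taf4IEC. *Fabp2* was the 1 member at more than 0.5 on the log2 scale in opposite directions in the first clusters and in stem-like cells. *Rbp2* had 0.619 and 1.2 over all cells and 5.08 and 5.81 in the first clusters (log2 0.19, 0.11 to 0.28).

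The enzymes of triglyceride synthesis had log2 ratios under 0.5 in the first clusters. *Mogat2*, the monoacylglycerol acyltransferase of the intestine, had 0.273 UMIs per 10000 over all control cells and 0.515 in the library labelled Taf4IEC. In the first clusters it had 1.75 (1.63 to 1.88) and 1.84 (1.72 to 1.97), giving a log2 ratio of 0.075 whose interval (-0.067 to 0.22) spans 0. *Dgat1*, which adds the last fatty acid of a triglyceride, had 0.448 and 0.85 over all cells and 2.09 (1.96 to 2.23) and 2.62 (2.48 to 2.77) in the first clusters, with a log2 ratio of 0.33 (0.20 to 0.45).

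Of the genes of chylomicron assembly, *Apob* differed more than *Mttp*. *Apob* had 0.305 UMIs per 10000 over all control cells and 0.91 in the library labelled Taf4IEC, a log2 ratio of 1.58 (1.47 to 1.68). In the first clusters the levels were 1.26 (1.16 to 1.37) and 2.52 (2.38 to 2.67), giving a log2 ratio of 1.00 (0.85 to 1.14). In stem-like cells they were 0.178 (0.161 to 0.196) and 0.406 (0.367 to 0.449), giving a log2 ratio of 1.19. *Apob* was the member with a log2 ratio past 1 in cells outside the enterocyte-like class (1.19, 1.03 to 1.34), where 6.06% of genes with at least 200 UMIs were past 1 upwards. *Mttp* had 3.62 (3.45 to 3.81) and 4.46 (4.27 to 4.65) in the first clusters, a log2 ratio of 0.30, and 0.314 and 0.313 in cells outside the enterocyte-like class, a log2 ratio of 0.00 (-0.16 to 0.15).

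The exchangeable apolipoproteins went in different directions. *Apoa1* had 1.88 UMIs per 10000 over all control cells and 5.9 in the library labelled Taf4IEC, and in the first clusters 15.8 (15.5 to 16.2) and 28.0 (27.5 to 28.4), giving a log2 ratio of 0.82 (0.78 to 0.86). *Apoa4* had 2.42 and 1.49 over all cells, and 18.2 (17.8 to 18.6) and 6.99 (6.75 to 7.23) in the first clusters, a log2 ratio of -1.38 (-1.44 to -1.32). *Apoc3*, whose gene lies between them, had 3.02 and 4.61 over all cells and 26.2 (25.7 to 26.7) and 22.6 (22.2 to 23.1) in the first clusters, a log2 ratio of -0.21. In the first clusters *Apoa4* was the 1 member past a log2 ratio of -1, against 1.29% of the 3959 genes with at least 200 UMIs there, and 0 members were past 1, against 1.31%. The members' median there was 0.25, and that of all these genes 0.0045.

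*Apoa4* was lower in the library labelled Taf4IEC in each named class with over 100 cells in both libraries. In stem-like cells its control level was 0.265 (0.244 to 0.287) and its level in the library labelled Taf4IEC 0.0582 (0.0438 to 0.0757), with a log2 ratio of -2.19. In Paneth/goblet-like cells the levels were 0.373 and 0.0424 (log2 -3.14, -4.09 to -2.31), and in enteroendocrine-like cells 0.193 and 0.0807 (log2 -1.26, -2.09 to -0.47), the latter on 46 and 20 UMIs. In Paneth/goblet-like cells *Apoa1* was also lower in the library labelled Taf4IEC, at 0.213 and 0.14 (log2 -0.60, -1.19 to -0.032). In all cells outside the enterocyte-like class the log2 ratio was -2.69 (-2.97 to -2.42), where 2.5% of genes were past -1.

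Set against its neighbour, *Apoa4* had 1.15 UMIs per *Apoa1* UMI (1.11 to 1.18) in the control's first enterocyte-like cluster and 0.25 (0.24 to 0.259) in that of the library labelled Taf4IEC. In stem-like cells the control ratio was 3.68 (3.09 to 4.41) and the other 0.604 (0.424 to 0.854), and in Paneth/goblet-like cells 1.75 and 0.302. The ratio was lower in the library labelled Taf4IEC in every cell set examined, and the intervals of the libraries did not overlap in any of them. The ratio of *Apoc3* to *Apoa1* was 1.65 (1.6 to 1.7) and 0.81 (0.789 to 0.831) in the first clusters, but outside the enterocyte-like class it was 1.02 in both libraries.

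**Figure D3:**
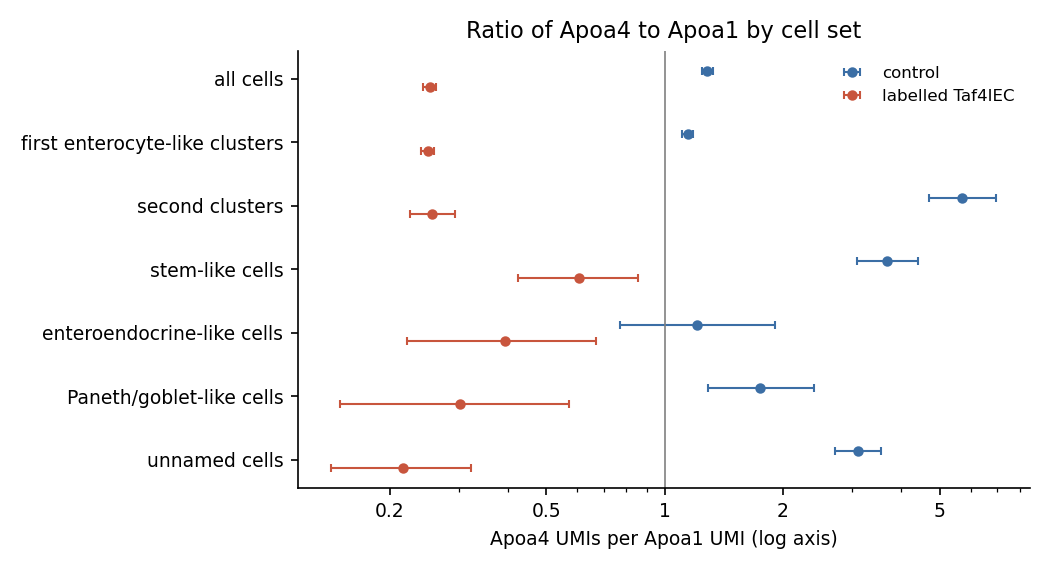
*Apoa4* UMIs per *Apoa1* UMI (log axis) in each cell set of the control and of the library labelled Taf4IEC, with exact 95% counting intervals; the second clusters are 294 unnamed control cells, which are also among the unnamed cells, and 129 cells labelled Taf4IEC. The control lies above 1 in each set, from 1.15 to 5.70, and the library labelled Taf4IEC below 1, from 0.217 to 0.604.

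The same UMIs were then read cell by cell, at the unequal depth of the cells and with cells of 1 library counted singly. In the control's first cluster 133 of 209 cells (63.6%, 56.7 to 70.2) had more *Apoa4* than *Apoa1* UMIs, and in that of the library labelled Taf4IEC 28 of 182 (15.4%, 10.5 to 21.5). Cells without an *Apoa4* UMI were 1.44% of these control cells and 20.3% of the others. Since 44 of the 182 cells but 7 of the 209 had under 2000 UMIs, each cell was also thinned to 2000 UMIs and the shallower cells were left out. *Apoa4* was then found in 85.6% of the control cells (80.0 to 90.2) and 55.8% of the others (47.1 to 64.2), and without thinning in 98.6% and 79.7%. In stem-like cells, which have little of this transcript, the thinned shares were 5.09% and 1.74%, at median depths of 21119 and 24813 UMIs before thinning. Of these cells, thinning left out 7 of 1067 in the control and 102 of 447 in the library labelled Taf4IEC. *Apoa1* was found in 60.9% and 77.5% of the thinned cells of the first clusters (88.0% and 85.7% before thinning), *Apob* in 21.8% and 42.03% (74.6% and 76.4%) and *Fabp2* in 73.8% and 91.3% (95.7% and 91.2%). For stem-like cells these thinned shares were 0.943% and 3.77% for *Apoa1*, 3.4% and 5.51% for *Apob* and 17.8% and 13.0% for *Fabp2*.

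**Figure D4:**
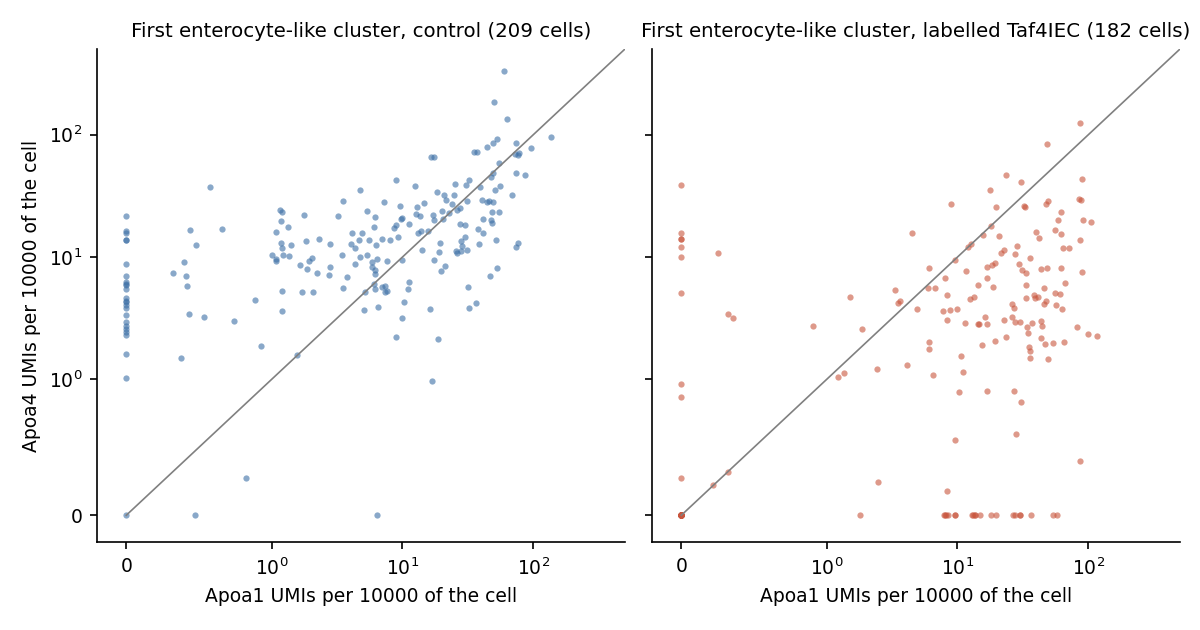
*Apoa1* (horizontal) and *Apoa4* (vertical) UMIs per 10000 UMIs of each cell in the first enterocyte-like clusters, on axes that are linear below 1 and logarithmic above; each point is a cell and the line marks equal levels. Most of the 209 control cells lie above the line (133 cells), and most of the 182 cells of the library labelled Taf4IEC lie below it, 28 being above.

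Cells of 1 cluster varied widely. *Apoa4* had a median of 12.9 UMIs per 10000 over the 209 control cells, with 3.42 at the 10th percentile and 43.0 at the 90th, and a median of 3.25 over the 182 cells, with 0 and 19.3 at these percentiles. *Apoa1* had medians of 7.32 and 17.3, and *Fabp1*, whose summed level was higher in the library labelled Taf4IEC, had the lower median there, 16.1 against 27.3. Over cells thinned to 5000 UMIs, Spearman's rho between *Apoa4* and *Apoc3* was 0.749 in 197 control cells and 0.554 in 115 cells of the library labelled Taf4IEC, and between *Apoa1* and *Apoa4* 0.541 and 0.334. These are descriptions over cells of 1 library each, which share its preparation.

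Other measures moved with the first-cluster values. The 14 enterocyte markers, all detected in both, summed to 65.5 UMIs per 10000 in the control's first cluster and 104 in the other, and the 12 stem markers to 0.963 and 0.562. The 4 genes of the low-quality list (*Gm42418*, *AY036118*, *Malat1* and *Lars2*) summed to 107 and 123, and over all cells to 70.3 and 119. The 5 villus-tip markers summed to 0.502 and 0.614, where *Ada* had 9 and 95 UMIs. *Egfr* (15 and 5 UMIs), *Slc28a2* (6 and 0) and *Nt5e* (1 and 0) had lower levels in the library labelled Taf4IEC, on few UMIs. *Klf4* had 189 and 192 UMIs, and its log2 ratio of -0.094 had an interval (-0.39 to 0.20) that spans 0. The 5 villus-base markers summed to 2.69 and 3.27, with *Nlrp6* and *Il18* at higher levels there and *Reg3b* (17 and 2 UMIs) and *Reg3g* (13 and 5 UMIs) at lower ones. Their part in the ratios of the members was not tested.

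The second cluster of the library labelled Taf4IEC had lower levels than the first of every member. It had 2.74 UMIs per 10000 of *Apoa1*, 2.25 of *Fabp2*, 2.01 of *Mttp*, 1.13 of *Fabp1* and 0.704 of *Apoa4*. Of the control clusters, an unnamed one of 294 cells shared the most of its 10 leading genes, namely 2 (*Tmem237* and *2610528A11Rik*), and whether both hold the same kind of cell is not known. The enterocyte markers summed to 32.1 UMIs per 10000 in the cluster of 129 cells and to 7.01 in that of 294, the stem markers to 2.66 and 11.05 and the Paneth/goblet markers to 23.1 and 7.3. Their part in the ratios that follow was not tested. With these clusters set side by side, 7 of the 9 members with at least 200 UMIs were past a log2 ratio of 1, against 7.04% of genes upwards and 3.36% downwards. *Apoa1* was at 0.242 in the control cluster (log2 3.504, 3.23 to 3.79), *Apob* at 0.194 and 0.954 (log2 2.30), *Fabp2* at 0.563 (log2 2.00) and *Fabp1* at 1.13 in both (log2 0.00, -0.18 to 0.18). *Apoa4* was at 1.38 (1.28 to 1.48) in the control cluster, which is the higher of the 2 levels (log2 -0.97, -1.17 to -0.77). Taking both enterocyte-like clusters of the library labelled Taf4IEC as 1 class of 311 cells against the control's 209, the members' median was -0.27 and the median of 5031 genes 0.042, with *Apoa4* at -2.15 and *Apoc3* at -1.05 past -1, as 1.45% of genes were, and 0 members past 1 against 1.97%. *Apoa1*, at 15.8 and 16.3 UMIs per 10000, had a log2 ratio of 0.043 in that class, *Mogat2* one of -0.40, *Dgat1* one of -0.10, *Mttp* one of -0.12 and *Apob* one of 0.51.

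The further 43 genes of fat handling gave 34 with at least 200 UMIs over all cells. Of these, 29 had a log2 ratio above 0, 6 were past 1 and 0 past -1 (5.52% and 3.48% of all genes with that many UMIs), with a median of 0.57 against 0.16 for all genes. Of the 6, 4 belong to lipid uptake and sterol transport: the cholesterol importer *Npc1l1* (0.305 and 0.766 UMIs per 10000, log2 1.33), the sterol exporters *Abcg5* (log2 1.27) and *Abcg8* (log2 1.17), and *Abca1*, which passes cholesterol to apolipoprotein A-I (0.034 and 0.088, log2 1.37). The others were *Pla2g12b* (log2 1.07), of chylomicron assembly and export, and *Abhd5*, the activator of the lipid droplet lipase (log2 1.43). In the first enterocyte-like clusters 29 of the 43 had at least 200 UMIs, 18 were above 0, and *Abca1* was the 1 gene past 1, at 0.155 and 0.326 (log2 1.07, 0.65 to 1.51), where 1.31% of all genes were. The median of the 29 was 0.12 and that of all genes 0.0045. Among them, 7 of 8 genes of chylomicron assembly and export were above 0 (median 0.19) and 3 of 8 genes of fatty acid activation and esterification (median -0.0083). None of the other apolipoproteins on the list (*Apoa5*, *Apoc2*, *Apoe*, *Apom* and *Apoh*, 5 in all) reached 200 UMIs over all cells.

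**Figure D5:**
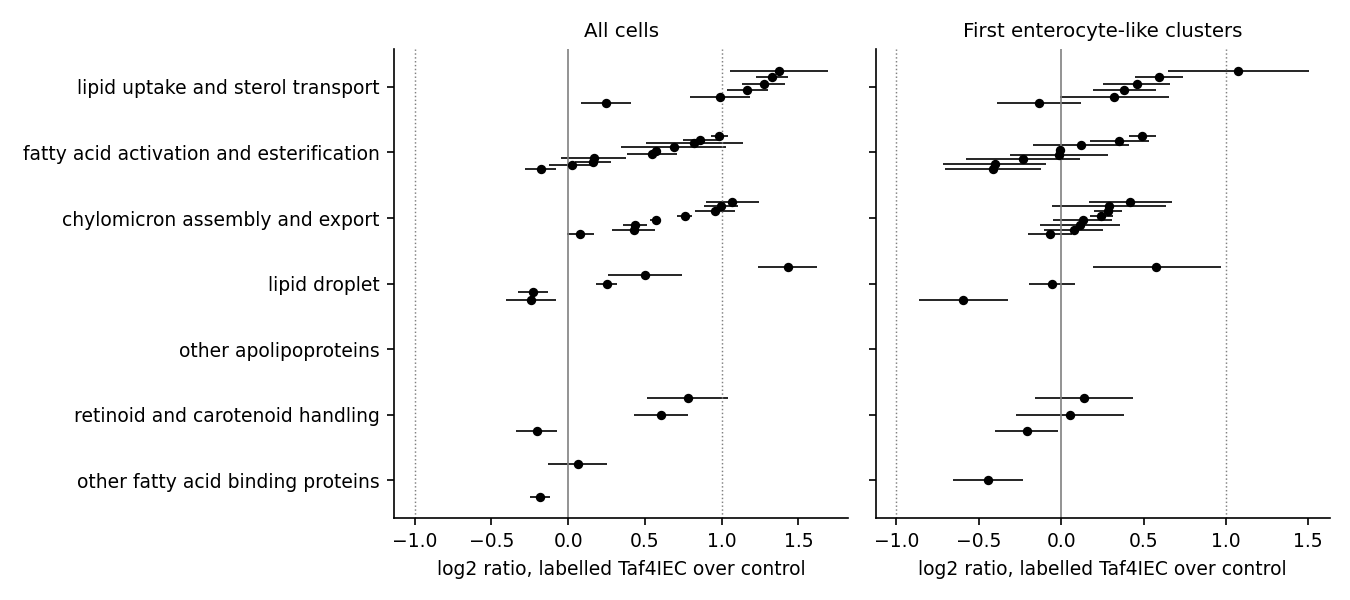
Log2 ratio of UMIs per 10000, library labelled Taf4IEC over control, for the listed genes of fat handling with at least 200 UMIs, by function, over all cells (34 genes) and in the first enterocyte-like clusters (29 genes); bars are exact 95% counting intervals and dotted lines ratios of -1 and 1. Over all cells 29 of the 34 lie to the right of 0; in the first clusters 18 of the 29 do, 1 gene is past 1, and the row of other apolipoproteins is empty in both panels.

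The 7 transcription factors listed as regulators of enterocyte lipid genes were all above 0 over all cells (median log2 0.58). The median of all genes with at least 200 UMIs was also above 0, at 0.16. Of the 7, 0 were past 1 in either direction, against 5.52% of genes upwards and 3.48% downwards. In the first clusters 4 of the 5 that reached 200 UMIs were above 0. Their median log2 ratio was 0.40, against 0.0045 for all genes, and *Ppara* was at 0.82, *Hnf4g* at 0.45 and *Cdx2* at 0.40. *Hnf4a* had 0.699 and 0.952 UMIs per 10000 over all cells and 0.885 and 1.10 in the first clusters (log2 0.32, 0.13 to 0.51). *Creb3l3*, which encodes a membrane-bound factor that acts on *Apoa4* and other apolipoprotein genes, had 0.135 and 0.164 over all cells but 1.17 and 0.72 in the first clusters (log2 -0.70, -0.90 to -0.50). With the second cluster taken into the class, *Creb3l3* was the 1 regulator past -1 of the 6 with at least 200 UMIs, against 1.45% of 5031 genes.

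Likeness to the members over the 28 clusters was measured by Pearson's r with the mean of the members' log levels. Outside the members and the further genes of fat handling, the highest were *Dpep1* (0.964), *Gm5485* (0.963), *Spink1* (0.96), *Slc51b* (0.958), *Gstm1* (0.954), *Gsta2* (0.954), *Gstm3* (0.951), *Gdpd2* (0.95), *Mt4* (0.95) and the enterocyte marker *Enpep* (0.949). The clusters of a library share its preparation. Among the members, which are part of that mean, r was between 0.699 for *Apob* and 0.981 for *Apoc3*.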

How the data were processed

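Live sorted cells were profiled by droplet 3′ single-cell RNA-seq. The authors aligned reads to mm10 with Cell Ranger 3.1 (bcl2fastq 2.17.1.14) and filtered cells in Seurat 3.1.4 to a range of 200 to 6000 genes and a mitochondrial share below 15%. The deposited tables hold raw UMI counts per gene and cell, and all deposited cells were used. Levels are UMIs summed over cells per 10000 UMIs, with exact Poisson 95% intervals, log2 ratios with exact conditional binomial intervals, and shares with Clopper-Pearson intervals, all for counting error only. With 1 library per group no test was made, and a log2 ratio of at least 1 either way with 200 or more UMIs in the libraries together is called by size. Intervals were tried on simulated Poisson counts without spread between cells, which is the model they assume, so this does not check them for real cells. Scrublet (scanpy 1.11.5) marked 10 control cells (0.39%) and 0 of the others as doublets, too few to say that doublets were removed, and none was left out.

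Each library was clustered in Seurat 5.3.0 (R 4.3.3) with log normalization, 2000 variable genes without the members and the pathway list, UMI count and mitochondrial share regressed out, 20 principal components and resolution 0.9. Clusters were named for the class that had most markers at 1.5 times or more the mean level of the libraries, on 3 or more markers of at least 10 UMIs. Clusters with ties, with leading genes of another class or of low quality, or shallow without leading markers stayed unnamed. The members and lists were chosen with earlier results of these data known. Named genes are the members, list genes past the call, regulators by the same rule, and the 10 genes most like the members over clusters. *Hnf4a*, *Hnf4g*, *Ppara*, *Cdx2* and *Creb3l3*, the villus markers named singly, and the comparisons of single clusters, were chosen after the values were seen. Alternatives changed the total, the cells kept and their weight, doublets, the clustering, the naming and the class shares.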

Additional observations from a re-analysis of the deposited data

Results flagged for a closer look

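*Fabp2* was set aside because its difference between the libraries had opposite signs in 2 cell classes. In the first enterocyte-like clusters its level was higher in the library labelled Taf4IEC (26.2 and 41.97 UMIs per 10000, log2 0.68), and in stem-like cells summed it was lower (0.997 and 0.688, log2 -0.54). Single stem-like clusters overlapped, from 0.605 to 1.27 in the control and from 0.569 to 1.16 in the library labelled Taf4IEC. The part of the mix of stem-like clusters was not tested. The log2 ratios differ by 1.22. With 1 library per group the difference was not tested.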

How the results depend on the processing

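No paired analysis was possible because each group is 1 library and the labels give no replicate numbers. Over all cells the members' median was 0.95 in the main setting. Totals without mitochondrial genes, ribosomal protein genes and, of the low-quality list, *Gm42418* and *AY036118* only, gave 0.76. Thinning to 2000 UMIs gave 0.69, and averaging over cells gave 0.71. The control's class shares of UMIs gave -0.18. Under these shares 5 members changed sign (*Fabp1* to -0.58, *Fabp2* to -0.032, *Rbp2* to -0.47, *Mogat2* to -0.34 and *Apoc3* to -0.83). Those shares joined to a marker threshold of 2 times the mean, a setting chosen after seeing the data, gave 0.25. The 4 members past 1 were 3 on the totals without mitochondrial and the other removed genes, 3 with thinned cells and 2 as a mean over cells. The 0 past -1 were 1 as a mean over cells. Shares of all genes past these limits are given for the main setting only, so these counts have no such share beside them. In enterocyte-like cells the median of -0.27 was -0.043 at resolution 0.5, 0.074 at resolution 1.4, 0.061 without regression, -0.53 with members and pathway genes kept among the variable genes, -0.095 with both libraries clustered together, and 0.25 under either of the other marker thresholds, which left the second cluster out. Under these settings the class held 159 to 222 control cells and 118 to 316 cells of the library labelled Taf4IEC.

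Signs held over all 12 alternatives in enterocyte-like cells for 3 of 10 members, *Apob* (0.28 to 1.00), *Apoa4* (-2.40 to -1.38) and *Apoc3* (-1.35 to -0.21), over all 7 in all cells for 5 (*Dgat1*, *Apob*, *Mttp*, *Apoa1* and *Apoa4*), and over all 5 in the first clusters for 8, the exceptions being *Fabp1* and *Mogat2*. The alternatives were not all separate checks. Without predicted doublets the values in enterocyte-like cells and in the first clusters were those of the main setting. Both other marker thresholds took the same 209 and 182 cells. Depth limits the rarer members outside enterocyte-like cells, where *Rbp2* had 34 and 29 UMIs in stem-like cells.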
